A study of Mus musculus with 27 samples.

Results

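The colony-stimulating factors (CSFs) and their receptors were followed in cultured mouse glia. The set was fixed by gene symbol and holds 9 genes of the 54532 in the count table: the ligands Csf1, Il34, Csf2 and Csf3, and the receptor chains Csf1r, Csf2ra, Csf2rb, Csf2rb2 and Csf3r. All 9 were found in the table. The cultures were mixed glia from the cortex of C57BL6 mice taken at postnatal day 3 to 6, grown to confluency over 14 days in vitro and then exposed to the agents for 24 h. Experiment 1 had 5 groups: untreated glia, glia given 100 ng/mL lipopolysaccharide (LPS, a component of bacterial walls), LPS with 50 nM bryostatin, LPS with 20 ng/mL interferon gamma (IFN-gamma), and LPS with IFN-gamma and bryostatin. Experiment 2 had 4 groups: untreated glia, bryostatin (50 nM), interleukin 4 (IL-4, 20 ng/mL), and IL-4 with bryostatin. Each group had 3 RNA sequencing libraries, 27 in all. The title of the series names bryostatin-1, a macrocyclic lactone that binds protein kinase C, and neuroinflammation as its subject. No group received bryostatin with IFN-gamma but without LPS, and IFN-gamma was never given alone.

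CSFs are secreted proteins that keep myeloid cells alive and make them divide and mature. CSF1 and IL-34 are unrelated in sequence but share the receptor tyrosine kinase CSF1R, on which microglia, the resident macrophages of the brain, depend for survival. CSF2 (GM-CSF) binds a ligand-specific alpha chain, CSF2RA, which signals through the beta chain CSF2RB and the kinase JAK2. Mice carry a further beta chain, Csf2rb2, whose product pairs with the IL-3 receptor alpha chain, while the product of Csf2rb serves GM-CSF, IL-3 and IL-5. CSF3 (G-CSF) acts through CSF3R, the receptor that drives neutrophil production and that other myeloid cells also carry. In the brain, neurons are the best known source of IL-34 and astrocytes are a known source of CSF1.

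All positions are on mm10 as the deposited annotation gives them, and each gene is protein coding. Csf1 lies at chr3:107741048-107760469 on the minus strand, Il34 at chr8:110741829-110805924 on the minus strand, Csf2 at chr11:54247271-54249667 on the minus strand and Csf3 at chr11:98701263-98703629 on the plus strand. Csf2ra lies at chr19:61224402-61228418 on the minus strand and Csf3r at chr4:126024550-126044440 on the plus strand. Csf2rb, at chr15:78325752-78353847 on the plus strand, and Csf2rb2, at chr15:78282507-78305721 on the minus strand, are neighbours in opposite orientation. The libraries carried no strand information, so reads could not be assigned between Il34 and its 2 antisense genes, between Csf2 and its 1 antisense gene, or between Csf1r and Hmgxb3 on the other strand. Over all libraries the antisense genes at Il34 held 197 and 108 counts. The one at Csf2 held 294, more than Csf2 itself over all libraries. Csf2 held 32, 42, 58 and 80 counts per group with LPS, LPS and bryostatin, LPS and IFN-gamma, and all 3 agents. Each other group held 0 or 1, so the low counts of Csf2 are the most exposed to this limit.

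The beta chain genes are near copies, which limits how well their reads can be told apart. Over 2628 aligned coding bases of the GENCODE transcripts Csf2rb-201 and Csf2rb2-201, 2503 were the same (95.2%), and the longest identical run was 242 bases. Of all 50-base words in the transcripts of Csf2rb, 12.3% also occur in Csf2rb2, and 18.4% of those of Csf2rb2 occur in Csf2rb. The stretch of 90 coding bases printed here (coding bases 1993 to 2082, GRCm38 chr15:78348487-78348576 on the plus strand for Csf2rb and chr15:78284872-78284961 on the minus strand for Csf2rb2) shows the kind of difference on which an aligner depends. This stretch was picked for the most differing bases within the longest gap-free part of the alignment, so it is not typical. Capitals mark the 7 bases that differ.
Csf2rb: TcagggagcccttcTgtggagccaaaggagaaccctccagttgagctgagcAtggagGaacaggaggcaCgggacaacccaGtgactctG
Csf2rb2: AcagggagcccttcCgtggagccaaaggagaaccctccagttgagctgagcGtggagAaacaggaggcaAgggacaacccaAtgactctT
How reads that match both copies were counted is not given in the sources used here, so the split between these genes is uncertain.

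Promoter sequences from RefSeq (GRCm38.p6) were at hand for 5 of the 9 genes: Csf1, Csf2, Csf2ra, Csf2rb2 and Csf3r. The 250 bases before each start were searched on both strands for 7 patterns. Csf1, the ligand with the largest counts, is shown because its window held a match to the NF-kB pattern GGGANTTTC, on the opposite strand, 153 to 145 bases before the start. The window is chr3:107760470-107760719 on the minus strand, and capitals mark the match.
Csf1: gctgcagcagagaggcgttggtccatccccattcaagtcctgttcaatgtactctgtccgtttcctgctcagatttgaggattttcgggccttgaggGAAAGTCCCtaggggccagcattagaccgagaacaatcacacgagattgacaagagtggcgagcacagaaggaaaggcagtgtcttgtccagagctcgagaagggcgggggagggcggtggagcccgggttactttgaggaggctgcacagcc
That pattern was held by 0.941% of 32851 promoters of this length. Csf2 had a match to the C/EBP pattern TTGCNNAA, which 9.56% of promoters hold, but its RefSeq start is 232 bases before the start in the deposited annotation. The RefSeq start of Csf3r lies 109 bases inside the deposited gene, so its window overlaps the gene. The other patterns, with the share of promoters that hold each, were GGGANTTCC for NF-kB (1.43%), GAGATTCC for the core of the CK-1 element (0.755%), TGANTCA for AP-1 (6.75%), GGAAGTG for PU.1 (8.55%) and TATAAA for the TATA box (12.4%). The windows of Csf2ra, Csf2rb2 and Csf3r held none of these letters, and a match is a description of the sequence, not of a bound site.

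Total counts per library ran from 17230058 to 28687281, so that 3 counts equal 0.105 to 0.174 CPM, a count scaled to a common library size. CPM here include TMM factors, computed within an experiment. The cultures expressed markers of microglia (12 markers, summed per library to 518 to 2110 CPM), astrocytes (8 markers, 4790 to 17300 CPM), oligodendrocyte-lineage cells (8 markers, 217 to 803 CPM) and fibroblasts or mural cells (5 markers, 915 to 4330 CPM). Of 6 neutrophil markers, Mpo, Elane and S100a9 were at 0 in every library, and the list summed to at most 1.19 CPM. The labels do not state whether the 3 replicates were separate cultures or animals, so each p-value measures the spread between libraries, which may be technical. In bulk RNA, fewer cells of a type and less RNA per cell cannot be told apart.

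The untreated libraries labelled replicate 1 went against their labels. On log2(CPM + 1) across genes, replicate 1 of experiment 1 had a Pearson r of 0.995 with replicates 2 and 3 of the untreated group of experiment 2, and of 0.972 and 0.973 with those of its own group. Replicate 1 of experiment 2 had an r of 0.983 and 0.975 with replicates 2 and 3 of experiment 1 and of 0.963 and 0.954 with its own. Csf1 split the same way: untreated experiment 1 held 560, 259 and 274 CPM in replicates 1 to 3, and untreated experiment 2 held 266, 555 and 540 CPM. Labels were kept as given. Called fold changes against untreated glia, for genes with counts there, and the counts of calls are given with and without both libraries.

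Against untreated glia, most of the family changed with LPS and with LPS and IFN-gamma. With LPS, 8 of 9 genes were called at an adjusted p under 0.05 (edgeR's quasi-likelihood test), 7 higher and 1 lower, where 38.4% of all 16073 genes tested were called. With LPS and IFN-gamma, 9 of 9 were called against untreated glia, 7 higher and 2 lower, on a background of 58.1%. The median log2 fold change of the 9 genes was 0.77 with LPS and 1.66 with LPS and IFN-gamma, beside medians over all genes of -0.0078 and -0.0055. Csf2 and Csf3 passed the filter on low counts through the stimulated groups alone, so they had to differ, and both comparisons share the untreated libraries. With the doubted untreated libraries left out, 9 genes passed with LPS (background 42.8%) and 9 with LPS and IFN-gamma (background 60.9%). The gene that separates 8 calls from 9 is Csf2ra, whose difference between LPS with IFN-gamma and LPS was not called.

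IFN-gamma on top of LPS, bryostatin and IL-4 each reached fewer of these genes. In LPS with IFN-gamma against LPS, 5 of 9 were called, 3 higher and 2 lower (background 36%), with a median of 0.063 beside -0.0073 over all genes. Bryostatin added to LPS gave 3 of 9 calls, 1 higher and 2 lower (background 6.89%; median -0.12 beside 0.00015), and bryostatin added to LPS and IFN-gamma gave 1 of 9, lower (background 3.38%; median 0.0046 beside -0.012). Without both doubted untreated libraries these were 4 and 2 of 9 (backgrounds 13.1% and 8.41%). In experiment 2, 7 of the 9 genes had enough counts to test. Bryostatin alone gave 3 of 7 calls, 2 higher and 1 lower (background 3.62%; median 0.24 beside 0.0048). IL-4 alone gave 0 of 7 by edgeR (background 0.583%; median 0.3 beside -0.029), with 3 at an unadjusted p under 0.05, and DESeq2 gave 2. Bryostatin added to IL-4 gave 3 of 7, 2 higher and 1 lower (background 4.13%; median 0.13 beside 0.007).

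**Figure D1:**
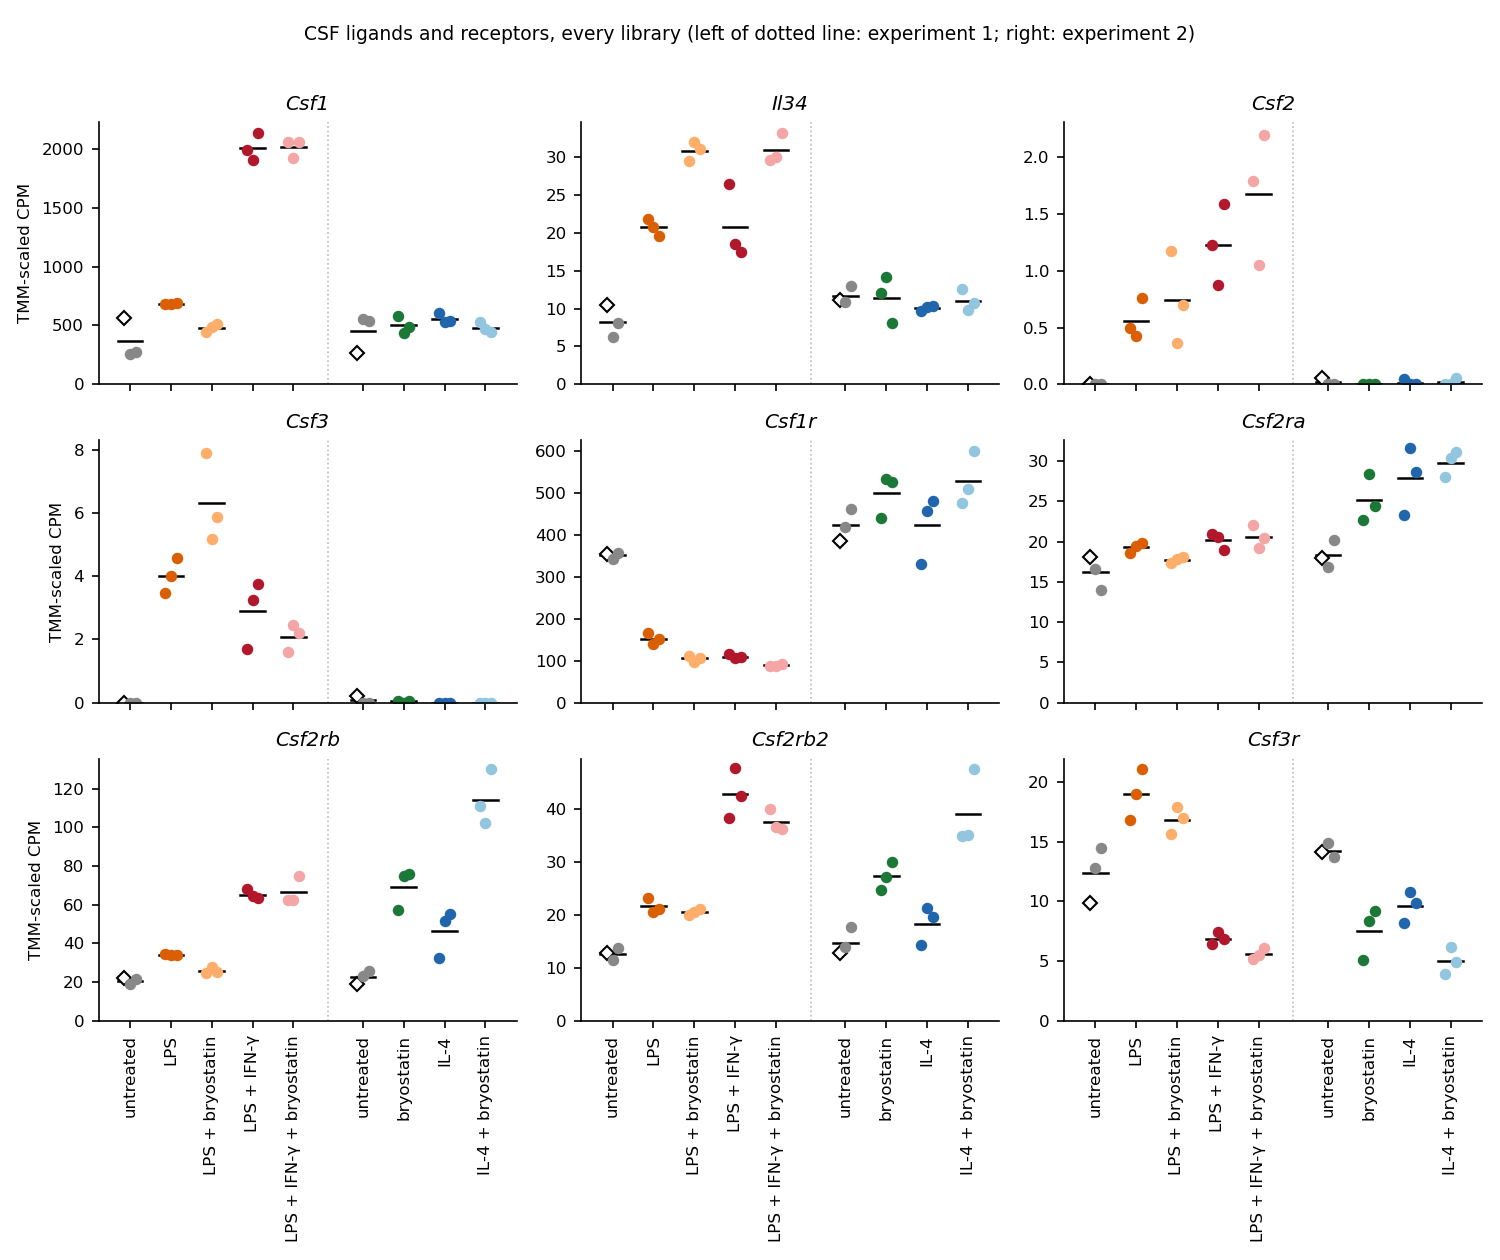
Levels of the 9 genes in every library, as TMM-scaled CPM on linear axes from 0, by group (points are libraries, bars are means of 3, open diamonds are the untreated libraries labelled replicate 1). Csf1 stands near 2010 CPM in both groups with IFN-gamma, Csf1r stands at 86.5 to 167 CPM in all 12 libraries given LPS, and Csf2 and Csf3 are near 0 outside those groups.

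Csf1 was the most abundant ligand per length. Untreated glia of experiment 1 held 71.2 ± 32.2 FPKM (SD, n = 3), against 4.37 ± 1.08 FPKM of Il34, the other CSF1R ligand. FPKM, a level scaled to gene length and library size, is the authors' value and is used here to compare levels between genes. LPS gave 680, 682 and 694 CPM of Csf1, above all 3 untreated libraries of experiment 1, at a log2 fold change of 0.91 ± 0.21 (SE; adjusted p = 0.0034). That difference was larger without both untreated libraries labelled replicate 1, at 1.37 (adjusted p = 7.9e-11), and its adjusted p was 0.053 with only untreated and LPS glia in the fit. LPS with IFN-gamma gave 1990, 1900 and 2130 CPM, which did not overlap LPS or untreated glia. Csf1 rose by 1.55 ± 0.21 against LPS (adjusted p = 6e-05) and by 2.46 ± 0.22 against untreated glia (adjusted p = 2.8e-07, and 2.92 without both doubted libraries).

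Bryostatin gave no detected difference in Csf1 when added to LPS with IFN-gamma, and its difference with LPS alone turned on which libraries set the spread. The 3 libraries of LPS with IFN-gamma and bryostatin held 2060, 1920 and 2060 CPM of Csf1, which overlap those without bryostatin (0.0046 ± 0.21, adjusted p = 1). LPS with bryostatin gave 446, 484 and 512 CPM, all below LPS, with a log2 fold change of -0.51 ± 0.21 that was not called (adjusted p = 0.19). Untreated libraries enter that test only through the shared estimate of the spread. Without both untreated libraries labelled replicate 1 the value was again -0.51, now called (adjusted p = 4.5e-05), and with the 4 groups given LPS in the fit it was -0.53 (adjusted p = 8.5e-05). In experiment 2 Csf1 was not called, with 584, 435 and 485 CPM for bryostatin, 606, 529 and 536 CPM for IL-4 and 533, 466 and 446 CPM for both. These libraries overlap untreated glia of experiment 2, and the log2 fold change with bryostatin turned from 0.14 ± 0.23 (adjusted p = 0.79) to -0.15 without both doubted libraries.

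Il34 followed another order of groups than Csf1. Untreated glia of experiment 1 held 10.5, 6.22 and 8.1 CPM and LPS gave 21.8, 20.7 and 19.6 CPM, with no overlap (1.33 ± 0.17, adjusted p = 1e-05; 1.53 without both doubted libraries). LPS with IFN-gamma gave 26.4, 18.5 and 17.5 CPM. Its level overlapped that of LPS, with a log2 fold change of 0.0065 ± 0.16 (adjusted p = 0.98), while the rise against untreated glia was 1.33 ± 0.17 (adjusted p = 5.2e-06; 1.54 without them). No further difference with IFN-gamma was detected. Markers of other cells moved in these groups too: the 8 astrocyte markers summed to 11600 to 14600 CPM in untreated glia (14200 to 14600 without replicate 1), 8870 to 9410 CPM with LPS and 6770 to 7290 CPM with IFN-gamma added, and the 5 fibroblast and mural markers to 1160 to 2480 (2220 to 2480 without replicate 1), 3590 to 4330 and 2330 to 3920 CPM. Gfap was the largest part of the astrocyte sum, with means of 9010 CPM in untreated glia, 4900 with LPS and 3640 with IFN-gamma added. Against untreated glia, LPS raised 2 of the 8 astrocyte markers and lowered 4 (background 38.4%). LPS with IFN-gamma raised 1 and lowered 5 (background 58.1%). The part of these other cells in the levels of Csf1 and Il34 was not tested.

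The groups with LPS and bryostatin had the highest Il34 levels of experiment 1. LPS with bryostatin held 29.5, 31.9 and 31 CPM, above every LPS library (0.57 ± 0.16, adjusted p = 0.039). LPS with IFN-gamma and bryostatin held 29.6, 30 and 33.2 CPM, above every library of LPS with IFN-gamma (0.57 ± 0.16, adjusted p = 0.063), of which replicate 1 stood apart at 26.4 CPM. Neither margin was wide. The call with LPS was lost on leaving out any 1 of the 6 libraries (0.54 to 0.61, adjusted p from 0.079 to 0.14), and the value with LPS and IFN-gamma was called without replicate 1 of LPS with IFN-gamma (0.78, adjusted p = 0.011) and without both doubted untreated libraries (0.57, adjusted p = 0.0084). The effects in the 2 settings differed by -0.0011 ± 0.22 (adjusted p = 1). Of the 12 libraries of experiment 2, all held 8.05 to 14.1 CPM of Il34, and none of its comparisons was called. In experiment 1, the 6 neuron markers summed to 199 to 298 CPM in untreated glia (273 to 298 without replicate 1). They summed to 183 to 199 CPM with LPS and 256 to 267 CPM with LPS and bryostatin. With IFN-gamma added they summed to 185 to 203 CPM without bryostatin and 226 to 239 CPM with it. Map2 and Tubb3 made up most of these sums, with means of 210 and 43.1 CPM in untreated glia. The means of Rbfox3, Snap25, Syt1 and Nefl there were 0.097 to 2.07 CPM. Of the 5 neuron markers tested, bryostatin raised 2 with LPS (background 6.89%) and 1 with LPS and IFN-gamma (background 3.38%), and lowered 0. The part of neurons in the level of Il34 was not tested.

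The balance of the CSF1R ligands varied between the groups given LPS. The ratio of Csf1 to Il34, in FPKM, was 12.3 ± 0.796 with LPS and 5.79 ± 0.284 with LPS and bryostatin (SD, n = 3), and the ranges of 11.6 to 13.1 and 5.6 to 6.11 did not overlap. LPS with IFN-gamma had a ratio of 37.1 ± 8.62 and LPS with IFN-gamma and bryostatin one of 24.2 ± 1.44, again without overlap (28 to 45.2 against 23 to 25.8). Untreated glia had 15.9 ± 3.64 in experiment 1 and 14.4 ± 5.11 in experiment 2, and in experiment 2 bryostatin had 17.2 ± 5.48, IL-4 20.5 ± 2.4 and both 16.3 ± 1.13. IL-4, at 19.1 to 23.3, lay just above the untreated range of 8.9 to 19, and the others overlapped it. Without the doubted libraries the untreated ranges were 12.5 to 15.4 and 15.4 to 19. No test was run on the ratios, which describe the levels given above.

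Csf2 and Csf3 were detected almost only with LPS. Csf2, the gene of GM-CSF, had 0 counts in all 3 untreated libraries of experiment 1, and 9, 9 and 14 counts with LPS (0.495, 0.427 and 0.764 CPM), so it was at least 11.1-fold higher against a floor of 3 counts over the untreated group. LPS with IFN-gamma gave 19, 14 and 25 counts (1.23, 0.873 and 1.59 CPM), at least 24.5-fold above untreated glia. In CPM the libraries with IFN-gamma all stood above those of LPS, but the difference of 1.13 ± 0.47 was not called (adjusted p = 0.077). Bryostatin gave 22, 7 and 13 counts with LPS and 29, 18 and 33 with LPS and IFN-gamma, both overlapping the groups without it. In experiment 2, each of the 12 libraries held 0 or 1 count of Csf2, and a difference between those groups was not detectable at this depth.

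Csf3, the gene of G-CSF, was the higher of the pair with LPS. It went from 0 counts in untreated glia to 63, 84 and 84 counts with LPS (3.47, 3.99 and 4.58 CPM), at least 80.1-fold above the floor of 3 counts over the group. With LPS and IFN-gamma it had 26, 52 and 59 counts (1.68, 3.24 and 3.76 CPM), at least 57.9-fold above untreated glia and overlapping LPS (-0.47 ± 0.29, adjusted p = 0.23). LPS with bryostatin gave 7.9, 5.16 and 5.88 CPM, all above LPS, at 0.65 ± 0.27 (adjusted p = 0.2, not called), and LPS with IFN-gamma and bryostatin gave 1.61, 2.45 and 2.2 CPM, overlapping the group without it (-0.47 ± 0.31, adjusted p = 0.53). The difference between the bryostatin effects was -1.13 ± 0.41 and was not called (adjusted p = 0.58). Libraries of experiment 2 held 0 to 4 counts of Csf3, with the 4 counts in untreated replicate 1, a library that goes against its label.

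**Figure D2:**
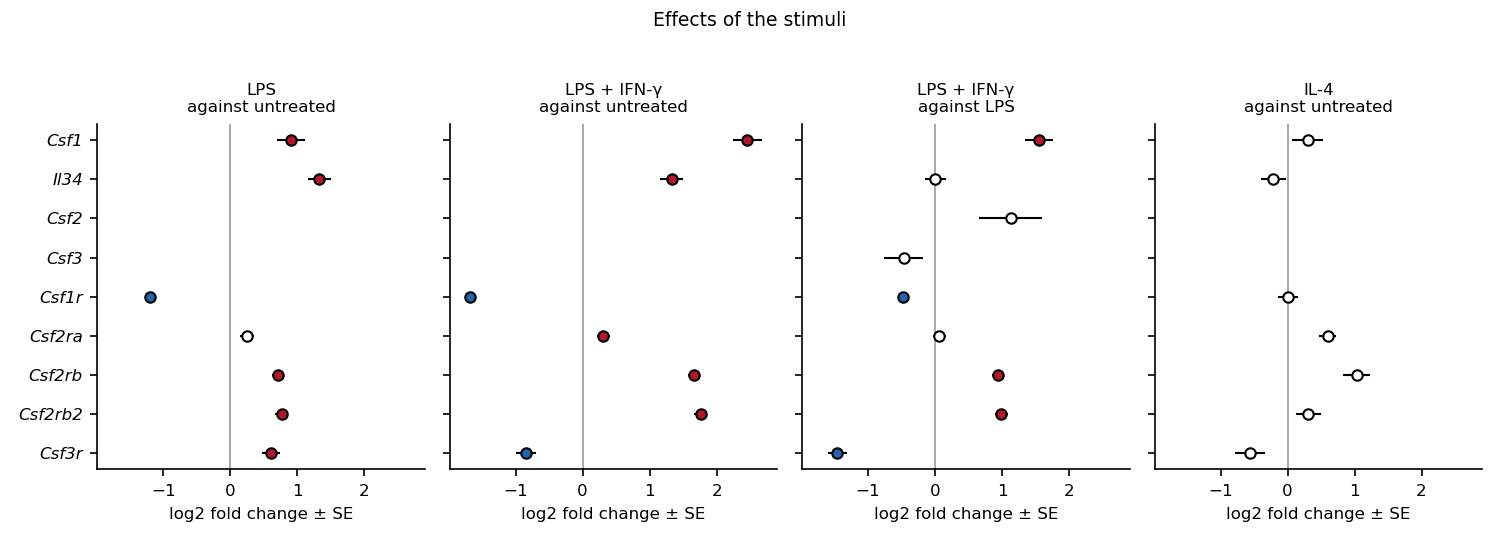
Log2 fold changes with SE (horizontal axis) of the CSF ligands and receptors for LPS, LPS with IFN-gamma and IL-4. Filled points were called at an adjusted p under 0.05 (red higher, blue lower), Csf2 and Csf3 are left out where the untreated group had 0 counts or the gene was not tested, and Csf3r changes sides, at 0.61 with LPS and -0.85 with LPS and IFN-gamma against untreated glia.

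Among the receptors Csf1r, at chr18:61105572-61132149 on the plus strand, was the most abundant per length in untreated glia (74.6 ± 1.47 FPKM in experiment 1). It was lower in LPS and in LPS with IFN-gamma than in untreated glia, and lower again where bryostatin was added to either. Untreated glia of experiment 1 held 355, 343 and 356 CPM and LPS gave 167, 139 and 152 CPM, with a log2 fold change of -1.2 ± 0.077 (adjusted p = 2.5e-09). LPS with IFN-gamma gave 115, 106 and 108 CPM, below every LPS library (-0.48 ± 0.077, adjusted p = 0.00014), and -1.68 ± 0.078 against untreated glia (adjusted p = 2.3e-11). Without the doubted libraries the values against untreated glia were -1.19 and -1.67. These calls held under all alternatives run. Csf1r is the receptor of both Csf1 and Il34, which rose in the same groups.

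Bryostatin lowered Csf1r further in glia given LPS. LPS with bryostatin held 112, 97.7 and 106 CPM, below all LPS libraries (-0.54 ± 0.077, adjusted p = 0.00043). LPS with IFN-gamma and bryostatin held 86.5, 87.9 and 91.5 CPM, below all libraries of LPS with IFN-gamma (-0.31 ± 0.077, adjusted p = 0.04). The second call was lost on leaving out any 1 of the 6 libraries (-0.32 to -0.27, adjusted p from 0.074 to 0.13). The difference between these effects was 0.23 ± 0.11 and was not called (adjusted p = 0.78). In experiment 2, bryostatin gave 440, 534 and 526 CPM against 386, 419 and 463 CPM in untreated glia (0.24 ± 0.15, adjusted p = 0.43), and with IL-4 it gave 477, 509 and 600 CPM against 330, 456 and 482 CPM (0.32 ± 0.15, adjusted p = 0.33). Both pairs overlap and neither was called.

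Markers of microglia moved with Csf1r. The summed CPM of 12 microglial markers was 1300 to 1620 in untreated glia of experiment 1 (1580 to 1620 without replicate 1), 888 to 953 with LPS, 652 to 727 with LPS and bryostatin, 648 to 735 with LPS and IFN-gamma, and 518 to 660 with all 3 agents. Of the 11 markers tested, 3 were higher and 7 lower with LPS (background 38.4%). P2ry12, the purinergic receptor of resting microglia, fell (-3.2 ± 0.31), while Aif1, which encodes IBA1, rose (1.32 ± 0.12). Bryostatin with LPS lowered 4 of 11 (background 6.89%), with Cx3cr1, the fractalkine receptor, at -1.37 ± 0.11, and P2ry12 (-0.33 ± 0.35) and Tmem119 (-0.0035 ± 0.16) not called. Per 100 CPM of the markers, Csf1r stood at 21.1 to 27.2 CPM in untreated glia (21.1 to 22.6 without replicate 1) and at 15.7 to 17.5 CPM with LPS, so the fall with LPS exceeded that of the summed markers. With bryostatin and LPS it stood at 14 to 16.3 CPM, which overlaps LPS. Siglech, a low marker (0.296 to 1.02 CPM in untreated glia), was at 0 in all libraries of LPS and of LPS with IFN-gamma, and the other 11 were above 0 in every group. In experiment 2, the list summed to 1560 to 2110 CPM in untreated glia (1560 to 1680 without replicate 1) and 1400 to 2090 CPM with bryostatin. The part of cell number in these results was not tested.

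**Figure D3:**
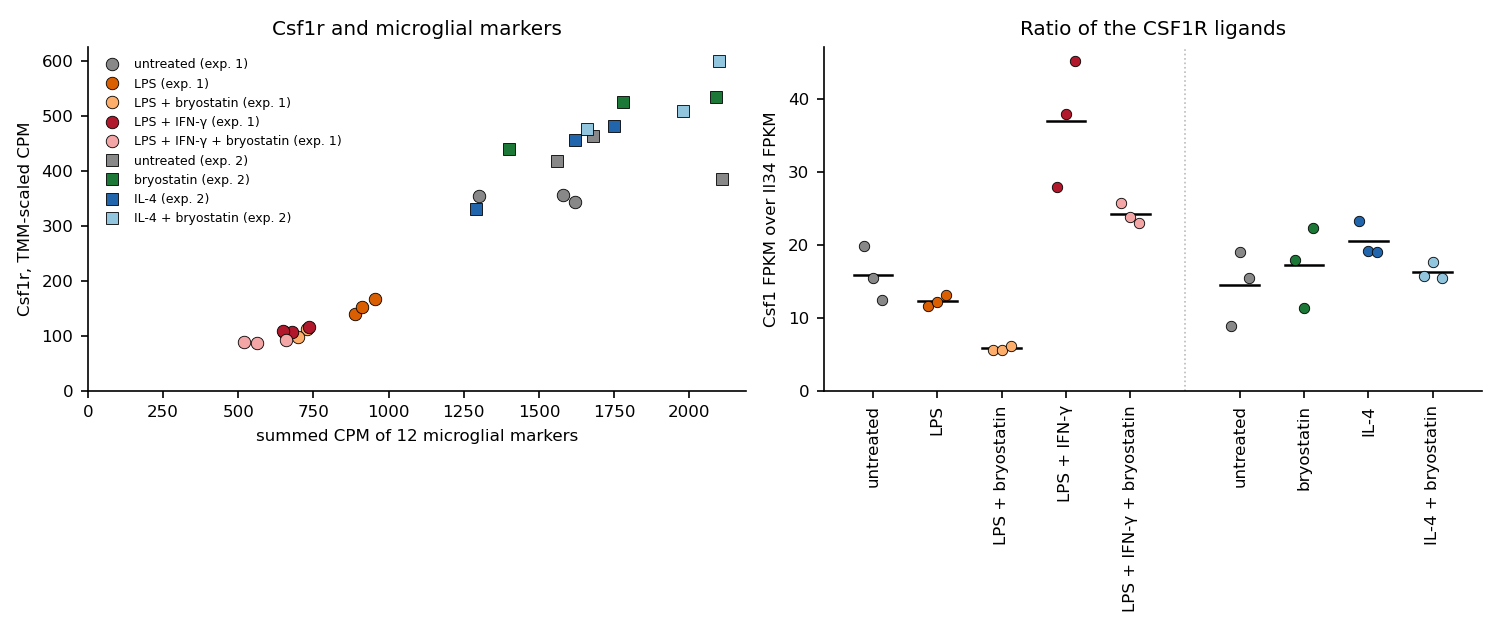
Left, Csf1r (CPM) against the summed CPM of 12 microglial markers in each of the 27 libraries; right, the ratio of Csf1 to Il34 in FPKM by group, with means of 3 as bars. Libraries given LPS lie at 518 to 953 marker CPM and 86.5 to 167 CPM of Csf1r, apart from the other 15, and the ratio is lowest with LPS and bryostatin at 5.79 and highest with LPS and IFN-gamma at 37.1.

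Csf2ra, the ligand-binding chain of the GM-CSF receptor, moved least of the receptors in experiment 1. Untreated glia held 18.1, 16.6 and 14 CPM, LPS 18.6, 19.5 and 19.8 CPM, and LPS with IFN-gamma 21, 20.6 and 18.9 CPM. LPS was above untreated glia without overlap but was not called (0.25 ± 0.1, adjusted p = 0.066), and was called without untreated replicate 1 (0.33, adjusted p = 0.017). LPS with IFN-gamma was called against untreated glia (0.31 ± 0.1, adjusted p = 0.016), a call lost without untreated replicate 3 (0.22, adjusted p = 0.095) and without replicate 2 of LPS with IFN-gamma (0.28). It was also lost without the filter on low counts (0.3, adjusted p = 0.076) and with only both groups in the fit (0.28, adjusted p = 0.1), and it was 0.4 (adjusted p = 0.0039) without both doubted libraries. In experiment 2, untreated glia held 18, 16.9 and 20.2 CPM, bryostatin 22.7, 28.4 and 24.4 CPM, IL-4 23.3, 31.7 and 28.6 CPM, and both 28, 30.4 and 31.1 CPM. Each treated group lay above the untreated libraries, and neither bryostatin (0.45 ± 0.13, adjusted p = 0.094) nor IL-4 (0.6 ± 0.13, adjusted p = 0.1) was called by edgeR. DESeq2 called both, at 0.46 (adjusted p = 0.041) and 0.61 (adjusted p = 0.0092), and leaving out IL-4 replicate 1 gave 0.71 (adjusted p = 0.046).

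Csf2rb, the signalling beta chain, spanned the widest range of the receptors in experiment 2, as a ratio of highest to lowest. Untreated glia held 19.1, 23.3 and 25.6 CPM and bryostatin gave 57.1, 74.9 and 75.8 CPM, with no overlap (1.61 ± 0.2, adjusted p = 0.0024). IL-4 gave 32.4, 51.5 and 55.1 CPM, above untreated glia but not called (1.03 ± 0.2, adjusted p = 0.054), with replicate 1 the lowest. IL-4 with bryostatin gave 111, 102 and 130 CPM, above every IL-4 library (1.3 ± 0.2, adjusted p = 0.0052). The effect of bryostatin with IL-4 differed from that alone by -0.31 ± 0.28 (adjusted p = 0.94). That test called 0 of 7 of these genes (0 at an unadjusted p under 0.05) and 0% of all genes (327 at an unadjusted p under 0.05), and DESeq2 called 0 of the 7 and 2 genes in all. The call for bryostatin alone was lost with only bryostatin and untreated glia in the fit (1.61, adjusted p = 0.062) and held on leaving out each library (1.48 to 1.73) and without both doubted libraries (1.48, adjusted p = 0.0055). For IL-4, leaving out IL-4 replicate 1 gave a call (1.23, adjusted p = 0.0063), as did DESeq2 (1.04, adjusted p = 0.00044), and the range of the adjusted p over all alternatives was 0.00029 to 0.32. Of the 4 markers of border macrophages, Mrc1, the mannose receptor, was also above untreated glia in each treated group. Its means were 36.3 CPM in untreated glia, 88 with bryostatin, 138 with IL-4 and 378 with both. Unlike Csf2rb, its mean was higher with IL-4 than with bryostatin. Mrc1 makes up most of the summed level, which was 45 to 59.9, 113 to 145, 109 to 179 and 327 to 483 CPM. Pf4 was at 13, 42.8, 8.64 and 18 CPM, and Lyve1 (0.166 to 0.359 CPM) and Cd163 (0.392 to 3.4 CPM) were low. Their part in these results was not tested.

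In experiment 1, Csf2rb rose with LPS and again with IFN-gamma. Untreated glia held 21.8, 18.8 and 21.4 CPM, LPS 34.4, 33.8 and 33.7 CPM, and LPS with IFN-gamma 67.9, 64.2 and 63.4 CPM, in 3 ranges that do not overlap. The steps were 0.72 ± 0.089 from untreated to LPS (adjusted p = 7.7e-06) and 0.94 ± 0.087 from LPS to LPS with IFN-gamma (adjusted p = 4.2e-07), and 1.66 ± 0.089 over both (adjusted p = 1.5e-10). Without the doubted libraries the values against untreated glia were 0.76 and 1.7. Of the border macrophage markers, Mrc1 fell with LPS (-2.88 ± 0.27, adjusted p = 3.1e-07) and Pf4 rose (0.69 ± 0.25, adjusted p = 0.041), and both fell with IFN-gamma added, while Lyve1 and Cd163 were too low to test. The 4 summed to 37.1 to 43.8, 14.8 to 18.5 and 1.29 to 2.49 CPM in untreated glia, LPS and LPS with IFN-gamma, and 5 markers of dendritic cells stood at 7.91 to 8.54, 8.03 to 9.11 and 13.9 to 14.8 CPM. Bryostatin lowered the level in LPS, to 24.5, 27.6 and 25.2 CPM (-0.4 ± 0.088, adjusted p = 0.011), a call lost without LPS replicate 1 (-0.39, adjusted p = 0.051), without replicate 1 of LPS with bryostatin (-0.37, adjusted p = 0.052) and without its replicate 3 (-0.38, adjusted p = 0.053), and in the fit of all 27 libraries (-0.42, adjusted p = 0.16). In LPS with IFN-gamma it gave 62.6, 62.6 and 74.6 CPM, overlapping the group without it (0.031 ± 0.085, adjusted p = 0.92). The effects of bryostatin with and without IFN-gamma differed by 0.43 ± 0.12, which was not called (adjusted p = 0.35). That test called 0 of the 9 genes by edgeR (2 at an unadjusted p under 0.05; 0 by DESeq2) and 0.118% of all genes. Without both doubted untreated libraries it called 1 of the 9, Csf1 (0.52, adjusted p = 0.017), on a background of 0.694%.

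Csf2rb2 rose with the same stimuli as Csf2rb in experiment 1 and with bryostatin in experiment 2. In experiment 1 it went from 12.8, 11.4 and 13.7 CPM in untreated glia to 23.2, 20.5 and 21.1 CPM with LPS (0.77 ± 0.1, adjusted p = 1.5e-05) and to 38.2, 47.7 and 42.5 CPM with LPS and IFN-gamma (0.99 ± 0.098 above LPS, adjusted p = 1e-06). Without the doubted libraries the values against untreated glia were 0.78 for LPS and 1.77 for LPS with IFN-gamma. LPS with bryostatin gave 20, 20.5 and 21.1 CPM, overlapping LPS (-0.073 ± 0.1, adjusted p = 0.77). In experiment 2, bryostatin gave 24.6, 27.2 and 30 CPM against 12.7, 13.9 and 17.6 CPM in untreated glia (0.89 ± 0.19, adjusted p = 0.028). IL-4 with bryostatin gave 34.8, 35 and 47.5 CPM against 14.2, 21.3 and 19.5 CPM with IL-4, again with no overlap (1.09 ± 0.19, adjusted p = 0.0094). The call for bryostatin alone was lost without any one of bryostatin replicates 1, 2 and 3 or untreated replicates 1 and 2 (0.77 to 0.96, adjusted p from 0.054 to 0.095), and the call with IL-4 held in each such fit.

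The proportion of the beta chains varied between groups. In FPKM, the ratio of Csf2rb to Csf2rb2 was 1.07 ± 0.0511 in untreated glia of experiment 1, 1.03 ± 0.0568 with LPS and 1 ± 0.144 with LPS and IFN-gamma (SD, n = 3). It was 0.818 ± 0.0537 with LPS and bryostatin, below every LPS library, and 1.16 ± 0.166 with LPS, IFN-gamma and bryostatin, overlapping the group without bryostatin. In experiment 2 it was 1.01 ± 0.0775 in untreated glia, 1.65 ± 0.14 with bryostatin, 1.64 ± 0.184 with IL-4 and 1.92 ± 0.155 with both, and none of the treated libraries overlapped the untreated ones. Against the alpha chain, the ratio of Csf2rb to Csf2ra went from 0.327 ± 0.0529 in untreated glia to 0.822 ± 0.0321 with LPS and IFN-gamma in experiment 1, and from 0.314 ± 0.0413 to 0.975 ± 0.111 with IL-4 and bryostatin in experiment 2. These ratios were not tested, and those of the beta chains depend on how shared reads were assigned.

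Csf3r, the G-CSF receptor, rose with LPS and fell once IFN-gamma was added. Untreated glia of experiment 1 held 9.86, 12.8 and 14.5 CPM and LPS gave 16.8, 19 and 21.1 CPM (0.61 ± 0.14, adjusted p = 0.002). LPS with IFN-gamma gave 6.39, 7.42 and 6.81 CPM, below all libraries of both other groups (-1.46 ± 0.14 against LPS, adjusted p = 9.3e-07; -0.85 ± 0.15 against untreated glia, adjusted p = 0.00011). These 3 calls held under all alternatives run, at 0.48 and -0.98 against untreated glia without the doubted libraries. Bryostatin gave 15.6, 17.9 and 17 CPM with LPS (-0.17 ± 0.14, adjusted p = 0.56) and 5.2, 5.48 and 6.06 CPM with LPS and IFN-gamma (-0.3 ± 0.15, adjusted p = 0.38), neither called. Thus the ligand Csf3 was detected in the LPS groups whether or not IFN-gamma was present, while its receptor stood at 16.8 to 21.1 CPM in one and 6.39 to 7.42 CPM in the other.

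In experiment 2 Csf3r was lower with bryostatin, by narrow calls. Untreated glia held 14.1, 14.9 and 13.7 CPM, bryostatin 5.11, 8.32 and 9.19 CPM, IL-4 8.2, 10.8 and 9.86 CPM, and IL-4 with bryostatin 3.89, 6.19 and 4.9 CPM. Each treated group lay below untreated glia, and IL-4 with bryostatin below IL-4. The log2 fold change was -0.92 ± 0.22 for bryostatin alone (adjusted p = 0.049), -0.95 ± 0.23 with IL-4 (adjusted p = 0.041) and -0.56 ± 0.22 for IL-4 (adjusted p = 0.45, not called). Both calls were lost on leaving out any 1 of their 6 libraries (-1.08 to -0.7, adjusted p from 0.06 to 0.14, and -1.14 to -0.79, adjusted p from 0.059 to 0.17). Without both doubted libraries bryostatin alone gave -0.94 (adjusted p = 0.066). The 8 markers of the oligodendrocyte lineage summed to 624 to 789 CPM in untreated glia (624 to 654 without replicate 1) and 709 to 803 CPM with bryostatin, and their part in the result was not tested.

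**Figure D4:**
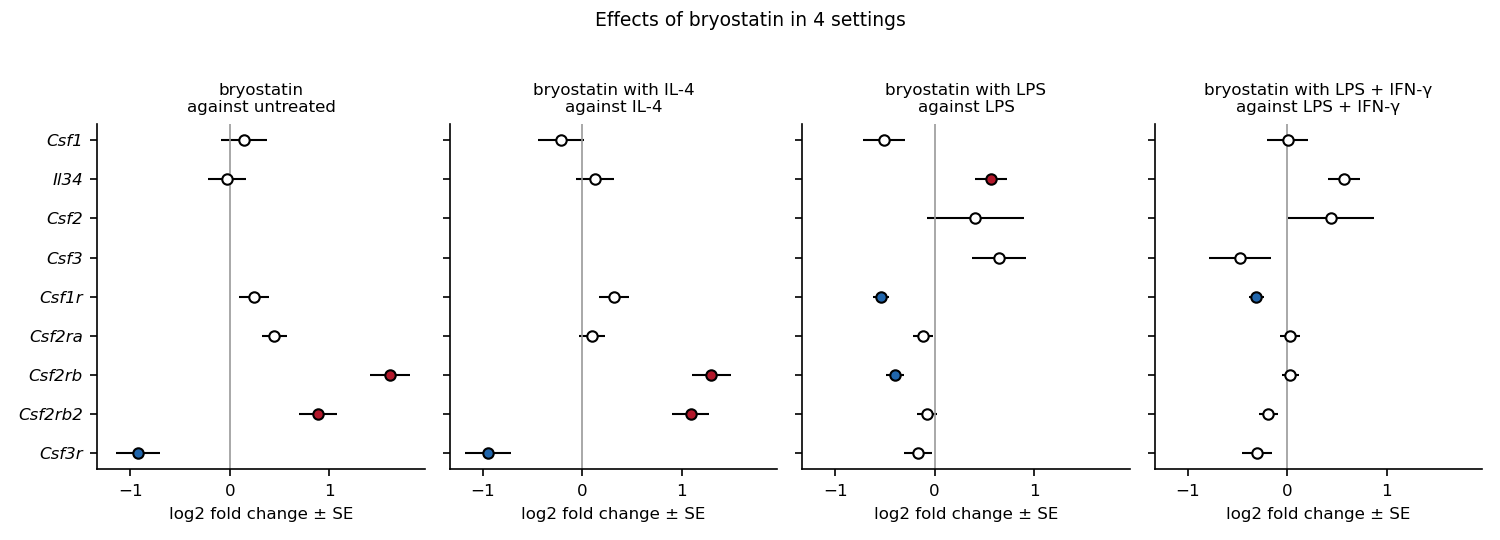
Log2 fold changes with SE (horizontal axis) for bryostatin alone, with IL-4, with LPS and with LPS and IFN-gamma, each against the same setting without bryostatin. Filled points were called at an adjusted p under 0.05 (red higher, blue lower), Csf2 and Csf3 were not tested in experiment 2, and Csf2rb lies at 1.61 and 1.3 in experiment 2 and at -0.4 and 0.031 in experiment 1.

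Bryostatin had opposite signs on Csf2rb with and without LPS, in different experiments. A test of that difference was added after these values were seen. It takes the effect of bryostatin with LPS minus its effect alone, each within its experiment, in an edgeR fit of all 27 libraries. It called 3 of the 7 genes with counts in both experiments, where 1.87% of all genes were called: Csf2rb (-2.03 ± 0.22, adjusted p = 1.2e-05), Csf2rb2 (-0.98 ± 0.21, adjusted p = 0.013) and Csf1r (-0.8 ± 0.17, adjusted p = 0.011). These 3 were also called without both doubted untreated libraries (-1.91, -0.87 and -0.73) and on leaving out each of the 12 libraries of the 4 groups. Csf2ra was not called (-0.6 ± 0.16, adjusted p = 0.059), nor were Csf1, Il34 and Csf3r. The presence of LPS and the experiment cannot be told apart in this contrast.

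Across the 27 libraries, centred on the mean of their experiment, each receptor had its own nearest genes among 13735 protein-coding genes. Csf2rb and Csf2rb2 were nearest to each other (Pearson r = 0.944), and both had Itgb2, the beta integrin of leukocytes, among their 4 nearest (0.925 and 0.93). Csf1r was nearest to Man2b1, which encodes a lysosomal mannosidase (0.964). Csf2ra had lower values, led by the guanine deaminase Gda (0.851) and with Csf2rb in the fourth place (0.803), and Csf3r was led by Syt11 (0.905). Among ligands, Csf1 was nearest to Sfrp1, a secreted modulator of WNT signalling (0.978), and Il34 to Penk, the enkephalin precursor (0.926). Between the CSF1R ligands r was 0.51, and between Csf1r and Il34 it was -0.85. The libraries of a group share their treatment, so these values describe the groups as much as the libraries, and the beta chains share reads.

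Genes that act downstream of CSF1R did not all follow the receptor. Of 18 adaptors and kinases, 17 were tested in experiment 1, and LPS raised 8 and lowered 3 (median 0.25), where 38.4% of all genes were called. The kinase Syk (1.72 ± 0.08) and the PI3K subunit Pik3cd (0.79 ± 0.093) rose, and the lipid phosphatase Inpp5d fell (-0.79 ± 0.1). LPS with IFN-gamma raised 9 and lowered 4 (background 58.1%), with Tyrobp, the adaptor DAP12, at -1 ± 0.12. Bryostatin with LPS lowered 3 and raised 0 (background 6.89%), among them Pik3cg (-0.58 ± 0.15) and Syk (-0.29 ± 0.076). In experiment 2, bryostatin raised Pik3cd (0.81 ± 0.16) and Syk (0.7 ± 0.13), 2 of 18 (background 3.62%), and with IL-4 it raised 3 and lowered 1 (background 4.13%), where Fgr, a SRC-family kinase, fell (-2.81 ± 0.48) after a rise with IL-4 (3.53 ± 0.53). Without both doubted libraries the list's counts higher and lower were 8 and 3 with LPS (background 42.8%) and 10 and 4 with LPS and IFN-gamma (background 60.9%). They were 2 and 0 with bryostatin (background 2.7%) and 6 and 1 with bryostatin and IL-4 (background 8.54%).

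Transcription factors that act at CSF receptor genes split in direction. Of 16 tested in experiment 1, LPS raised 8 and lowered 7 (median 0.21; background 38.4%): Cebpb (2.39 ± 0.14), Cebpd (1.89 ± 0.13) and Runx1 (1.69 ± 0.21) rose, and Cebpa, a driver of granulocyte and macrophage genes, fell (-2.12 ± 0.15). IFN-gamma on top of LPS raised 5 and lowered 5 (background 36%), with Irf8, a factor of microglia and interferon responses, at 3.02 ± 0.1 and Tfec at -2.74 ± 0.34. Bryostatin with LPS, on a background of 6.89%, lowered 2, among them Spi1, which encodes the Csf1r activator PU.1 (-0.37 ± 0.092), and raised 2, Egr2 (1.19 ± 0.2) and Egr1 (0.79 ± 0.18). Egr1 fell with bryostatin in LPS with IFN-gamma (-0.99 ± 0.19), and the difference between these effects was -1.78 ± 0.26 (adjusted p = 0.013). In experiment 2, bryostatin raised 3 of 17 (background 3.62%), among them Tfec (1.55 ± 0.35) and Ets2 (0.8 ± 0.13), and lowered Egr1 (-0.94 ± 0.22), while IL-4 raised 3 (background 0.583%), among them Irf4 (2.8 ± 0.37) and Tfec (2.39 ± 0.35). Without both doubted libraries LPS raised 8 and lowered 6 (background 42.8%), bryostatin alone raised 2 and lowered 1 (background 2.7%), and IL-4 raised 2 (background 0.561%).

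The JAK-STAT and feedback genes of the GM-CSF and G-CSF receptors were mostly higher where IFN-gamma was given. Of 18, LPS raised 9 and lowered 1 (median 0.48; background 38.4%), and LPS with IFN-gamma raised 15 and lowered 1 against untreated glia (median 1; background 58.1%). Without both doubted libraries these were 10 and 1 (background 42.8%), and 16 and 1 (background 60.9%). Socs1, a feedback inhibitor of JAK kinases, rose by 2.3 ± 0.14 with LPS and by a further 3.34 ± 0.13 with IFN-gamma. Socs3, which limits signalling from the G-CSF receptor, rose by 2.41 ± 0.086 and the kinase Pim1 by 2.39 ± 0.13 with LPS. IFN-gamma with LPS also raised Cish, a target of STAT5, above LPS (1.66 ± 0.17). By edgeR, bryostatin changed 0 of 18 with LPS (background 6.89%), with 3 at an unadjusted p under 0.05. Alone it changed 0 (background 3.62%), with 5 at an unadjusted p under 0.05. With LPS and IFN-gamma it raised 2 (background 3.38%), Myc (0.53 ± 0.13) and Pim1 (0.52 ± 0.11). With IL-4 it raised 2 (background 4.13%), Osm (1.9 ± 0.26) and Socs3 (0.72 ± 0.15). Without both doubted libraries it raised 2 and lowered 2 with LPS, where 13.1% of all genes were called. It then raised 3 and lowered 0 with LPS and IFN-gamma (background 8.41%), and the counts alone and with IL-4 stayed 0 and 2 (backgrounds 2.7% and 8.54%). IL-4 raised Socs1 alone (1.86 ± 0.23), where 0.583% of all genes were called.

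Of the related ligands and chains, 5 of 12 had enough counts to test, and Il3 and Il5, the other ligands of the beta chains, were not among them. LPS raised Flt3l (1.43 ± 0.24), Il3ra, the alpha chain that binds IL-3 (1.29 ± 0.13), and Kitl, the stem cell factor (0.67 ± 0.13), and lowered Epor (-1.27 ± 0.45). These were 4 of 5, where 38.4% of all genes were called. Without both doubted libraries 3 were called, all higher (background 42.8%). IFN-gamma raised Kitl by a further 2.21 ± 0.13 above LPS, and bryostatin with LPS raised it by 0.55 ± 0.12. Of 8 other binding partners and genes of receptor shedding, LPS raised 3 and lowered 3, where 38.4% of all genes were called. Without both doubted libraries these were 3 and 2 (background 42.8%). With LPS, Mmp9 was at 3.7 ± 0.27 and the sheddase partner Rhbdf2 at 2.07 ± 0.12, while Ptprz1, a receptor of IL-34, was at -0.79 ± 0.18. Mmp9 rose further with bryostatin in LPS (1.08 ± 0.2) and in LPS with IFN-gamma (0.9 ± 0.23). Of 9 tested regulators of cytokine mRNA stability, LPS raised 3, led by the RNase Zc3h12a (3.48 ± 0.12), which degrades cytokine mRNA, and lowered 1, a share near the 38.4% of all genes. Without both doubted libraries LPS raised 2 and lowered 0 (background 42.8%). IFN-gamma raised Zfp36 above LPS (1.72 ± 0.094). With bryostatin, edgeR called 0 of these 9 in each of the 4 settings (backgrounds 3.38% to 6.89%), with 0 or 1 at an unadjusted p under 0.05. Without both doubted libraries it called 1, higher, with LPS and IFN-gamma (background 8.41%) and 0 in the other settings (backgrounds 2.7% to 13.1%). DESeq2 was not run on these lists.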

How the data were processed

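RNA from 27 libraries of mixed glia, prepared by poly(A) selection without strand information per the labels' protocols, was analysed from the deposited gene tables. The submitters' processing notes name fastp, STAR, featureCounts and mm10, and their versions are not given in the sources used here. Read counts per gene were used as the authors deposited them. FPKM are the authors' deposited values and were used to compare genes per length. The members and lists were chosen with earlier results of these data known. Rules for named genes were all 9 members, the called pathway genes with the largest changes, and the 4 genes nearest to each member.

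Counts were tested with edgeR 4.0.16 (R 4.3.3): filterByExpr by group (minimum count 10), TMM factors and a robust quasi-likelihood fit for each experiment, with all its groups sharing the spread. Benjamini-Hochberg adjustment ran over all genes tested, 16073 in experiment 1 and 15604 in experiment 2, and the threshold was 0.05. The SE of a log2 fold change is its size divided by the square root of F. The fits were checked on simulated counts. DESeq2 1.42.0, its size factors, no filter, other groups in the fit, a block for the replicate number and omission of each library in turn were alternatives. Replicate numbers did not pair the samples: in no comparison did every same-numbered pair correlate above 0.1. Depth limits single libraries to a floor of 3 counts, which covers counting error only. A few genes of the lists and of the nearest genes are not reported here.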

Additional observations from a re-analysis of the deposited data

Results flagged for a closer look

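The effect of bryostatin differed between glia given LPS and glia given bryostatin alone in 3 receptor genes, by the added test of the difference itself in all 27 libraries with edgeR. Csf2rb had the difference farthest from 0, at -2.03 ± 0.22 on the log2 scale (adjusted p = 1.2e-05; 6.5e-06 to 9.4e-05 on leaving out each library). The effects were 1.61 alone, a call lost with only both groups in the fit (adjusted p = 0.062), and -0.4 with LPS, a call lost in the fit of all 27 libraries (-0.42, adjusted p = 0.16) and without any 1 of 3 libraries. For Csf2rb2 the difference was -0.98 ± 0.21 (adjusted p = 0.013; 0.0039 to 0.046), from 0.89 alone and -0.073, not called, with LPS. For Csf1r it was -0.8 ± 0.17 (adjusted p = 0.011; 0.0063 to 0.047), from 0.24, not called, alone and -0.54 with LPS. The groups come from different experiments, so LPS and experiment cannot be told apart.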

How the results depend on the processing

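Of the refits of single genes, 1152 kept direction and side of the threshold, 47 lost a call, 28 gained one and 51, all of values that were not called, changed sign. The counts of the 9 members called moved for bryostatin alone from 3 to 0 with only both groups in the fit (1 to 2 on leaving out each library). Without both untreated libraries labelled replicate 1 the count was 1 (background 2.7%). For IL-4 they moved from 0 to 2 with DESeq2, 2 with all 27 libraries in 1 fit, 1 without the filter and 1 with a replicate block (0 to 2). Bryostatin with IL-4 gave 2 on leaving out each library. With LPS, bryostatin gave 1 in the fit of 27 libraries, 5 with only both groups (1 to 2), and with LPS and IFN-gamma 2 with DESeq2, 0 with 27 libraries, 0 with only both groups, 2 with the 4 LPS groups and 2 without both doubted libraries (0 to 1). On leaving out each library, LPS and LPS with IFN-gamma gave 8 to 9 against untreated glia, and LPS gave 6 with only both groups in the fit. The members called for the difference of bryostatin effects with and without IFN-gamma were 1 with only its groups and 1 without both doubted libraries (0 on leaving out each library), and those of the added test were 3 to 4.

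The replicate block, fitted though the numbers did not pair the samples, gave 1.01 for Csf2rb with IL-4 (adjusted p = 0.011) and 1.11 for Csf2 in LPS with IFN-gamma against LPS (adjusted p = 0.041). Same-numbered deviations correlated at -0.5 to 0.35.

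Signs turned for Csf1 with bryostatin alone (-0.15 without both doubted libraries) and for Csf1r with IL-4 (-0.012 with the block, -0.062 without those libraries). Il34 in LPS with IFN-gamma against LPS was -0.004 with 27 libraries, -0.0068 with only both groups, -0.0055 with the block and -0.019 with the 4 LPS groups. Its difference of bryostatin effects was 0.012 with DESeq2, 0.014 with size factors, 0.016 with 27 libraries, 0.0048 without the filter, 0.033 with only its groups and 0.0099 with the block. On leaving out each library, values spanned 0 for bryostatin alone in Csf1 (-0.15 to 0.3) and Il34 (-0.2 to 0.17), IL-4 in Csf1r (-0.1 to 0.15), bryostatin with IL-4 in Csf2ra (-0.014 to 0.2), bryostatin with LPS in Csf2 (-0.078 to 0.75) and IFN-gamma on LPS in Il34 (-0.2 to 0.12). They also did so for bryostatin with LPS and IFN-gamma in Csf1 (-0.028 to 0.05), Csf2ra (-0.022 to 0.075) and Csf2rb (-0.048 to 0.08), and for differences of effects in Csf1r (-0.072 to 0.18), Csf3r (-0.25 to 0.13) and Il34 (-0.039 to 0.32) with IL-4, and Csf2 (-0.31 to 0.53) and Il34 (-0.11 to 0.2) with IFN-gamma.

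Calls over all genes ranged widely: bryostatin alone 9 (only both groups) to 1548 (27 libraries), from 565. IL-4 gave 41 to 224, bryostatin with IL-4 173 to 2703, with LPS 562 to 3354, and with LPS and IFN-gamma 242 to 1380. The difference with IFN-gamma gave 5 to 114, that with IL-4 0 to 5, and the added test 200 to 506. The cause was not tested. Leaving out libraries and fits of fewer groups have fewer samples by construction.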
